A study of Mus musculus with 8 samples.

Results

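This account covers 34 genes of fatty acid oxidation among the 12393 genes measured in mouse lymph node (LN) RNA. They were chosen by name, and each is represented by its brightest probe set, the one with the highest mean over all arrays among those annotated to that gene alone. All 34 genes had such a probe set, 20 of them only 1 and 14 of them more than 1. By role, 20 encode mitochondrial proteins (4 of the carnitine shuttle, 5 acyl-CoA dehydrogenases, 8 of the later steps of the cycle and 3 of electron transfer). A further 8 are peroxisomal, 3 are acyl-CoA thioesterases and 3 are genes of uptake and regulation.

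The study asked how the histamine H3 receptor affects LN gene expression at rest and early after immunization. Wild-type C57Bl/6 mice (WT) and mice of the H3RKO line (B6.129P2-Hrh3tm1Twl, with Hrh3 disrupted in all tissues) were compared, all 8 weeks old, and 8 arrays were hybridized. Untreated WT and untreated H3RKO mice gave 2 arrays each. The other 4 groups gave 1 array each, 24 h after an injection of complete Freund's adjuvant (CFA) or of CFA with pertussis toxin (CFA+PTX), in WT and in H3RKO mice. The RNA on each array was pooled from at least 3 mice, so no array shows a single animal. Female and male mice were used, and how the sexes were divided over the pools is not stated here. The nodes taken are not given in the sources used here. For the CFA+PTX arrays the titles mention PTX only and the descriptions mention both agents, and grouping followed the descriptions.

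Fatty acid oxidation shortens fatty acids stepwise to acetyl-CoA. In mitochondria the carnitine shuttle carries activated fatty acids across the inner membrane, an acyl-CoA dehydrogenase matched to chain length opens each round, and hydratase, dehydrogenase and thiolase steps close it, while electron transfer flavoprotein passes the electrons to the respiratory chain. Peroxisomes shorten very long and branched chains with a separate set of enzymes, thioesterases release free fatty acids from acyl-CoA, and the nuclear receptor PPAR alpha raises transcription of many of these genes. Brown fat is especially rich in the mitochondrial enzymes, and lymph nodes lie within adipose tissue.

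All values are deposited log2 signals, on which 1 unit is a 2-fold difference, and levels of different probe sets are not compared. The arrays carried LN transcripts throughout: the mean log2 signal of 7 measured B cell markers ran from 11.17 to 11.46 and that of 8 T cell markers from 10.81 to 11.13. The log2 signal of Hrh3 was 6.56 to 6.66 in the arrays labelled WT and 7.20 to 7.29 in those labelled H3RKO, higher in the knockout. Whether this probe set lies in the disrupted part of the gene was not tested, so H3RKO below means the arrays labelled so. Genes of salivary and lacrimal gland set 2 arrays apart, with a list mean of 8.35 in WT untreated replicate 1 and 5.02 in WT CFA+PTX against 11.01 to 11.84 in the other 6. In such bulk RNA, fewer cells of a type and less RNA per cell cannot be told apart.

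By probe sets of their own, Acot1 was the only gene of the set that passed the study's criterion. A probe set shared by Acot1 and its neighbour Acot2 passed as well. The gene bodies are 15.62 kb apart on chromosome 12 (GRCm38.p6), Acot2 at chr12:83987861-83993877 and Acot1 at chr12:84009502-84017670, both on the plus strand. The 150 bases before each annotated start are shown, from RefSeq, because this pair is set side by side below. They are in lower case throughout, since no copy of AGGTCA, the motif that PPAR and related receptors read, was found on either strand in the 300-base promoter (250 bases before and 50 after the start) of either gene.
Acot2 promoter, chr12:83987711-83987860, plus strand: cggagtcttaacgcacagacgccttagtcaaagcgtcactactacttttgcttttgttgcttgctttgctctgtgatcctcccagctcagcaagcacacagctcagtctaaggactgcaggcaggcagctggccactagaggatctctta
Acot1 promoter, chr12:84009352-84009501, plus strand: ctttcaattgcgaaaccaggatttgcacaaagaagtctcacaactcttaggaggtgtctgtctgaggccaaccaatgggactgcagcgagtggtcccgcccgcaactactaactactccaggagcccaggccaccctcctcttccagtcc
Aligned over their 300 bases, both promoters were identical at 44.5% of 335 columns.

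PPAR alpha binds a direct repeat of that motif with 1 base between its copies (AGGTCANAGGTCA). Promoters were listed for 30 of the 34 genes, 32 promoters in all. The repeat, with up to 2 mismatches in its 12 fixed bases and on either strand, was in 3 of the 32 (9.38%) and in 3.86% of all 32851 promoters of that length. The single exact motif, whose matches can overlap those of the repeat, was in 5 of the 32 (15.6%) and in 16.3% of all. All 3 repeats lay beside genes of the mitochondrial group, the hydratase Echs1, the electron transfer flavoprotein subunit Etfa and the carnitine carrier Slc25a20. They are printed 5′ to 3′ on the gene's strand with the repeat in capitals, which in Etfa reads on the opposite strand.
Echs1, chr7:140116482-140116514, minus strand: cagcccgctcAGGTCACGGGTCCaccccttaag
Etfa, chr9:55512298-55512330, minus strand: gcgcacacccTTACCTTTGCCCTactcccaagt
Slc25a20, chr9:108662132-108662164, plus strand: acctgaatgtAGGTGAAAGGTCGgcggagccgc
These matches describe letters and are no evidence of binding.

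**Figure D1:**
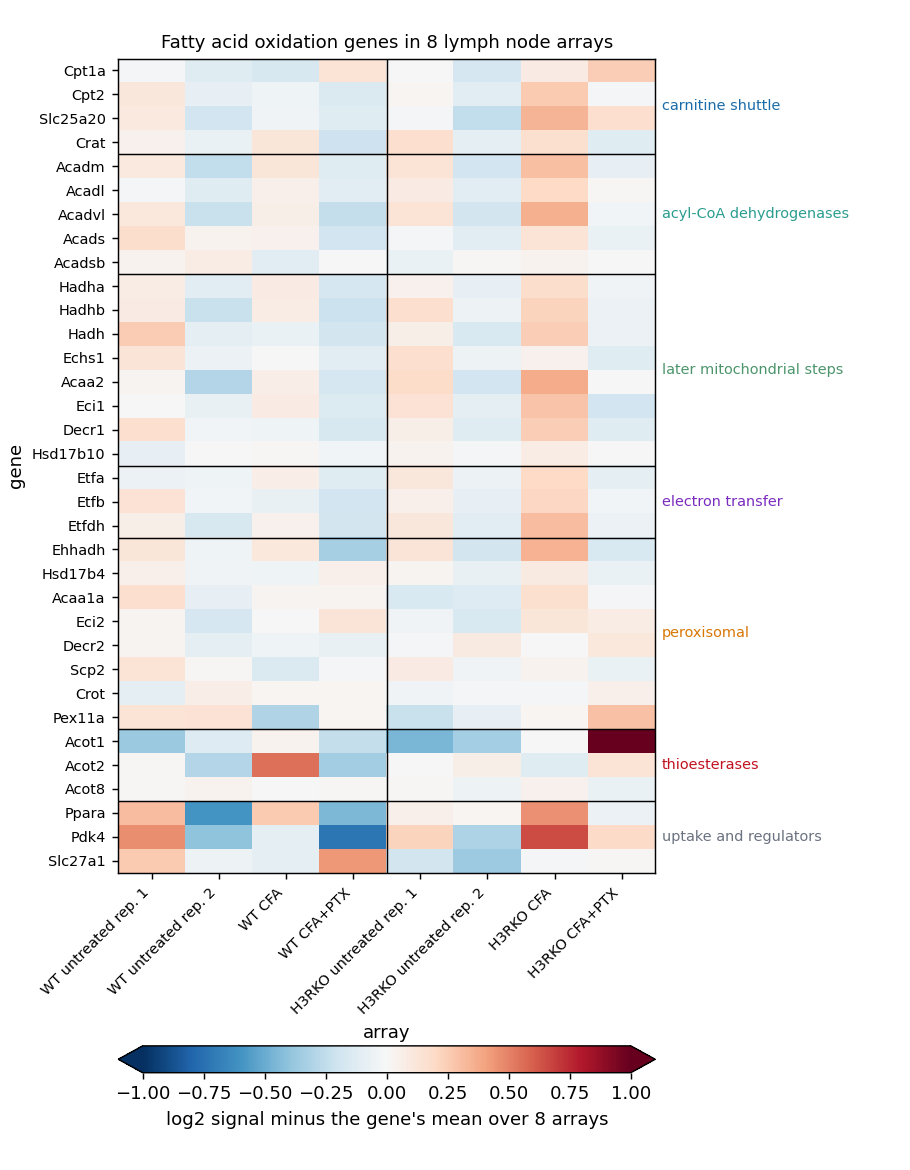
Heat map of the 34 genes (rows, ordered by role) in the 8 arrays (columns). Colour is each gene's log2 signal minus its mean over the arrays, from -1 (blue) to 1 (red), with values beyond that range shown at its end. The H3RKO CFA array was highest for 14 of the 20 mitochondrial genes, the WT CFA+PTX array was lowest for 10, and Acot1 reached 7.65 in H3RKO CFA+PTX alone.

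Most genes of the set varied little. The range over the arrays was 0.11 for Acot8, a peroxisomal thioesterase, 0.16 for Crot, which makes carnitine esters in peroxisomes, and 0.17 for the branched-chain dehydrogenase Acadsb. It was widest in Acot1 at 1.94, in Pdk4, a kinase that holds back pyruvate oxidation, at 1.37, and in Ppara at 1.06. The mitochondrial mean over the untreated replicates was 10.44 and 10.27 for WT and 10.45 and 10.26 for H3RKO. It was 10.38 in WT CFA, 10.24 in WT CFA+PTX, 10.58 in H3RKO CFA and 10.34 in H3RKO CFA+PTX. The peroxisomal mean ran only from 9.11 to 9.28. As the heat map shows, H3RKO CFA was the highest array for 14 of 20 mitochondrial and 2 of 8 peroxisomal genes.

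In untreated LN no gene of the set differed by genotype at the criterion the study applied, a fold change over 2 with an unadjusted p under 0.05 (0 of 34; 0.161% of all genes, limma). At an unadjusted p under 0.05 alone there were 2, against 4.9% of all genes, and without moderation of the variances there were 0. Both were lower in H3RKO. Slc27a1, a fatty acid transport protein, was at 8.85 and 8.54 in WT and at 8.41 and 8.22 in H3RKO. The difference was -0.38 ± 0.14 (SE; adjusted p = 0.916, limma). Pex11a, which drives peroxisome division, was at 8.30 and 8.31 in WT and at 7.94 and 8.08 in H3RKO. Its difference was -0.30 ± 0.09 (adjusted p = 0.916, limma). Acaa1a, the peroxisomal thiolase, came next at -0.18 ± 0.11 (adjusted p = 0.928), from 9.49 and 9.23 in WT and 9.16 and 9.19 in H3RKO, and its other probe set differed in the opposite direction.

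Over all 34 genes, the median untreated difference was -0.02, as over all genes (-0.02), and 14 were higher in H3RKO. The median changed sign with the arrays used, from -0.09 without H3RKO untreated replicate 1 to 0.05 without WT untreated replicate 1. For 31 of the 34 the larger gap between the replicates of 1 genotype exceeded the genotype difference. The median replicate gap was 0.19 in WT and 0.15 in H3RKO, against a median absolute genotype difference of 0.07. In both genotypes replicate 1 was above replicate 2 for 17 of the 20 mitochondrial genes. Replicate numbers are not known to pair the arrays. Neither the count of 31 nor that of 17 was set against all genes, so neither is read as a trait of the set.

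After CFA+PTX the thioesterase Acot1, which acts in the cytosol, was higher in H3RKO. Its log2 signal was 5.79 and 6.03 in untreated WT, 6.20 in WT CFA and 5.92 in WT CFA+PTX. In H3RKO it was 5.70 and 5.82 untreated, 6.16 after CFA and 7.65 after CFA+PTX. The H3RKO CFA+PTX array stood alone, and the other 7 arrays lay between 5.70 and 6.20. The difference was 1.73 ± 0.16 (SE), or 3.31-fold, with adjusted p = 0.201 over all probe sets (limma). It was the 1 gene of 34 past the criterion, against 0.347% of all genes, and 2 had an unadjusted p under 0.05, against 3.36%. Each arm is 1 array and the spread comes from the untreated pairs, so the difference has no replicate of its own.

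A probe set that matches both Acot1 and Acot2 gave 6.78 and 6.98 in untreated WT, 7.15 in WT CFA and 6.92 in WT CFA+PTX. In H3RKO it gave 6.97 and 7.01 untreated, 6.93 after CFA and 8.10 after CFA+PTX, again highest by far in the last array. Its genotype difference after CFA+PTX was 1.17 ± 0.14 (adjusted p = 0.31, limma), or 2.25-fold, which also passed the study's criterion. It cannot tell Acot1 from Acot2, and is therefore kept apart from the 34 genes, so its pass assigns no change to Acot2.

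Acot2, the mitochondrial thioesterase, did not pass in its own probe set, and a difference from Acot1 was not tested. It was at 5.81 and 5.50 in untreated WT, 6.34 in WT CFA and 5.44 in WT CFA+PTX, and at 5.80 and 5.85 in untreated H3RKO, 5.67 in H3RKO CFA and 5.93 in H3RKO CFA+PTX. The WT CFA array was the highest and WT CFA+PTX the lowest. The difference was -0.67 ± 0.18 after CFA (adjusted p = 1.00) and 0.48 ± 0.18 after CFA+PTX (adjusted p = 1.00), both under 2-fold. With moderated variances its unadjusted p was under 0.05 after each injection. After CFA+PTX it was thus the gene beside Acot1 counted at that level. Without moderation its unadjusted p was above 0.05 after both. Only 28.4% of probe sets were dimmer than that of Acot1 and 24.4% than that of Acot2. Acot8 lay between 8.98 and 9.09 in all 8 arrays.

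**Figure D2:**
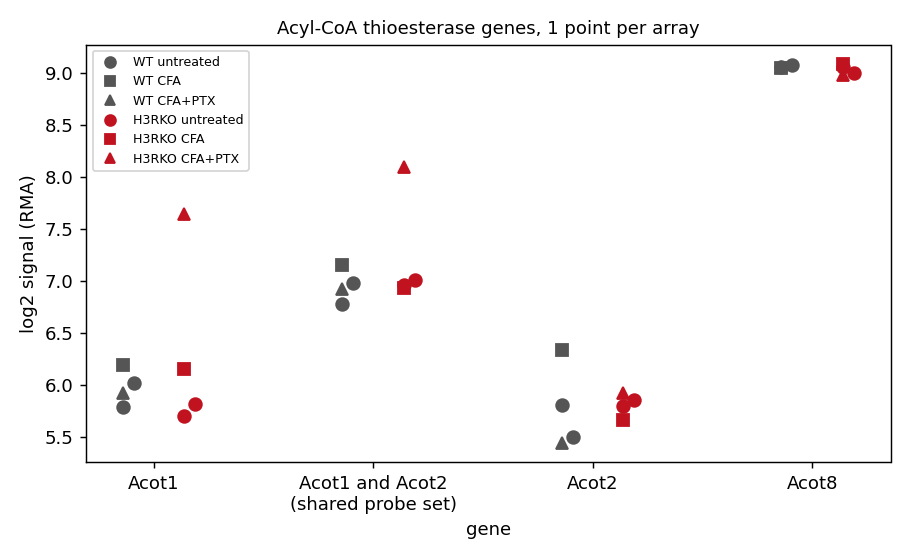
Log2 signal (vertical axis) of the thioesterase probe sets, 1 point per array, WT in grey and H3RKO in red, with circles for untreated, squares for CFA and triangles for CFA+PTX. Heights are comparable within a probe set and not between them. Acot1 and the probe set it shares with Acot2 stood out in H3RKO CFA+PTX at 7.65 and 8.10, Acot2 on its own was at 5.93 there.

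Neutrophil markers were also highest in the H3RKO CFA+PTX array: the mean of 9 measured genes was 8.93, against 7.33 to 8.01 in the other 7. Their list was drawn up with earlier results of these arrays known, so its peak in that array is no independent result. White adipocyte markers were at 8.91 there, the lowest mean together with WT CFA, and the gland list was at 11.54. The part of these in the Acot1 value was not tested. With WT untreated replicate 1 and WT CFA+PTX left out no such comparison could be made, since WT CFA+PTX is 1 of its arms. Cpt1a, Decr2 and Pex11a were the other genes highest in H3RKO CFA+PTX.

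After CFA the set was slightly higher in H3RKO, and so were several but not all other lists compared between the same 2 arrays. Of the 34 genes 31 were higher, with a median of 0.15 against 0.04 over all genes, of which 62.3% were higher. None passed the criterion (0.145% of all genes), and only Acot2, which was lower, had an unadjusted p under 0.05 (2.35% of all genes; 0 of 34 without moderation). All 20 mitochondrial genes were higher, by 0.04 to 0.37 with a median of 0.19. Beside them, 9 of 9 white adipocyte markers (median 0.37), 12 of 12 of skeletal muscle (0.30) and 9 of 9 of neutrophils (0.22) were higher. So were 17 of 17 respiratory chain genes (0.12), 8 of 10 brown fat genes (0.44) and 6 of 7 hepatocyte genes (0.10). T cell markers were higher for 5 of 8 (0.07), mammary epithelium for 5 of 8 (0.03), gland genes for 5 of 12 (-0.03) and B cell markers for 1 of 7. The part of these lists in the result was not tested. The carrier Slc25a20 had the largest of these mitochondrial differences, with 9.83 and 9.54 in untreated WT, 9.70 in WT CFA and 9.62 in WT CFA+PTX. In H3RKO it was at 9.72 and 9.49 untreated, 10.07 after CFA and 9.90 after CFA+PTX. The difference after CFA was 0.37 ± 0.20 (adjusted p = 1.00, limma). Thus H3RKO CFA was the top array, and the gap between the WT replicates, 0.29, was close to the difference.

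By role, the median difference after CFA was 0.27 for the carnitine shuttle, 0.27 for electron transfer and 0.13 for the peroxisomal genes, 7 of 8 of which were higher. After CFA+PTX the median of all 34 was 0.12, with 26 higher, against -0.03 over all genes. For the mitochondrial genes it was 0.12, with 18 of 20 higher, and for the peroxisomal genes -0.01, with 4 of 8 higher. In all, 18 of 20 mitochondrial and 3 of 8 peroxisomal genes were higher in H3RKO after both injections. This contrast between the organelles was not tested. Of all genes, 62.3% were higher in H3RKO after CFA and 41.6% after CFA+PTX. The share higher after both was not counted over all genes, so neither count is read as a trait of its group. The genes also share the same unreplicated arrays, so they are not independent of each other. Other probe sets of the 34 genes differed in sign for 3 of 19 after CFA (Hsd17b10, Hsd17b4 and Scp2). They did so for 7 of 19 after CFA+PTX (Acaa1a, Acadl, Cpt1a, Crat and Scp2).

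**Figure D3:**
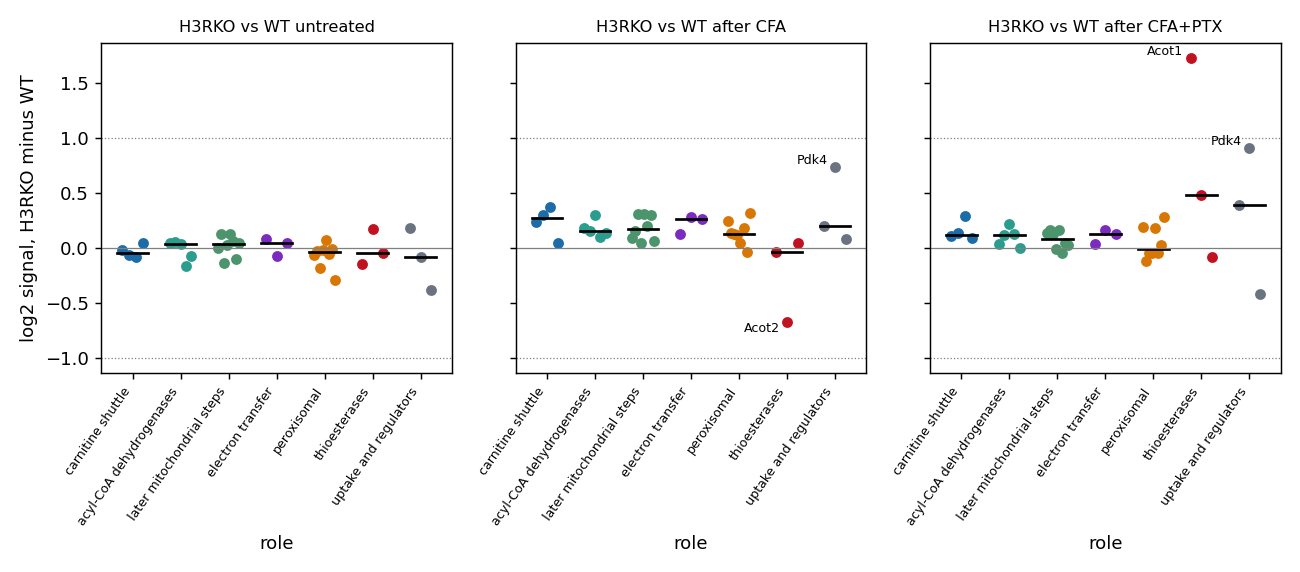
Difference in log2 signal, H3RKO minus WT (vertical axis), for each of the 34 genes (points) by role (horizontal axis) in untreated LN and after CFA or CFA+PTX. Black bars are medians and dotted lines mark a 2-fold difference. All 20 mitochondrial genes were above 0 after CFA, and Acot1 at 1.73 was the only point beyond a dotted line.

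Among uptake and regulatory genes, Pdk4 had the largest differences that did not pass. It was at 8.99 and 8.12 in untreated WT, 8.43 in WT CFA and 7.80 in WT CFA+PTX, and at 8.74 and 8.21 in untreated H3RKO, 9.17 in H3RKO CFA and 8.71 in H3RKO CFA+PTX. The untreated replicates of WT alone were 0.86 apart, so the differences of 0.74 ± 0.45 after CFA and 0.91 ± 0.45 after CFA+PTX (adjusted p = 1.00 for both, limma) were within or near that spread. Ppara ranged from 5.17 in WT untreated replicate 2 to 6.23 in H3RKO CFA, and 24.2% of probe sets were dimmer. Its genotype difference was 0.18 ± 0.29 in untreated LN and 0.39 ± 0.40 after CFA+PTX, in each case about its standard error or less.

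The genotype differences were then compared between treatments, with the same untreated arrays in both interactions. For CFA minus untreated, 0 of 34 genes passed the criterion (0.412% of all genes) and 2 had an unadjusted p under 0.05 (4.36%). They were Acot2 at -0.85 ± 0.22 (adjusted p = 0.848) and Pex11a at 0.62 ± 0.16 (adjusted p = 0.848). Pdk4 was at 0.82 ± 0.55 (adjusted p = 0.958). For CFA+PTX minus untreated, 1 gene, Acot1, passed (0.307% of all genes) at 1.87 ± 0.20 (adjusted p = 0.431, limma), and Pex11a was the other of 2 with an unadjusted p under 0.05 (2.45%) at 0.57 ± 0.16 (adjusted p = 1.00).

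Pex11a thus differed in sign between untreated and injected LN. Beside its untreated values given above, it was at 7.86 in WT CFA and 8.18 in H3RKO CFA, and at 8.18 in WT CFA+PTX and 8.46 in H3RKO CFA+PTX. It was lower in H3RKO untreated and higher in H3RKO after both injections, and its other probe set had the same signs in each. No adjusted p fell under 0.05.

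Over all treatments, no gene of the set had an adjusted p under 0.05 for genotype (0% of all genes), and 1 of 34 had an unadjusted p under 0.05 (3.84%; 0 without moderation). This was Slc27a1, whose injected arrays were at 8.49 (WT CFA), 9.02 (WT CFA+PTX), 8.58 (H3RKO CFA) and 8.60 (H3RKO CFA+PTX). It was -0.28 ± 0.11 lower in H3RKO (adjusted p = 0.999, limma), although the CFA arrays ran the other way. Pdk4 at 0.37 ± 0.26 and Acot1 at 0.35 ± 0.30 had larger differences with larger errors, and without the H3RKO CFA+PTX array Acot1 was at -0.11. Exact two-sided permutation tests of 4 arrays against 4 were made for Acot1, Acot2, Pex11a, Slc27a1 and Pdk4, by genotype and by injection. The lowest of 10 p-values was 0.0571 for Acot1 in injected LN (0.571 after Benjamini-Hochberg adjustment), where 0.0286 is the smallest possible, and Slc27a1 by genotype gave 0.171.

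Against untreated LN the differences after injection were small. After CFA, 29 of 34 genes were higher with a median of 0.13 (all genes 0.01; 0.05 without the H3RKO CFA array), with 0 at an adjusted p under 0.05 (0% of all genes, limma), and 0 at an unadjusted one (6.08%), with and without moderation. The largest differences were in Ppara at 0.41 ± 0.22, Acot1 at 0.34 ± 0.37 and Acaa2, the mitochondrial thiolase, at 0.29 ± 0.13. Acaa2 was at 10.71 and 10.38 in WT replicates without treatment, at 10.86 and 10.49 in those of H3RKO, and at 10.75 and 11.05 in WT and H3RKO CFA. The WT CFA array thus lay within the untreated range and the H3RKO one above it. After CFA+PTX, 24 of 34 were lower with a median of -0.06 (all genes 0.01; -0.12 to -0.0032 with 1 array left out, these being H3RKO untreated replicate 2 and WT untreated replicate 1), and again 0 had an adjusted p under 0.05 (0% of all genes), while 2 had an unadjusted one (13.1%; 1 without moderation). These were Acot1 at 0.95 ± 0.37 (adjusted p = 0.371), carried by 1 array, and Cpt1a at 0.27 ± 0.09 (adjusted p = 0.304).

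Cpt1a, the enzyme that commits fatty acids to mitochondrial entry, was at 10.73 and 10.62 in untreated WT, 10.74 and 10.58 in untreated H3RKO, 10.58 in WT CFA and 10.82 in H3RKO CFA. It was at 10.88 and 10.99 in WT and H3RKO CFA+PTX, above all other arrays. For both injections together, 0 genes had an adjusted p under 0.05 (0.0323% of all genes) and 1 of 34 had an unadjusted one (11.1%; 0 without moderation). It was Eci2, an isomerase of unsaturated fatty acids, at 0.16 ± 0.07 (adjusted p = 0.446, limma). The largest differences were in Acot1 at 0.65 ± 0.30, Slc25a20 at 0.18 ± 0.11 and Slc27a1 at 0.17 ± 0.11.

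Between CFA+PTX and CFA most mitochondrial genes differed in 1 direction. Of the 34 genes 25 were lower after CFA+PTX, with a median of -0.18 against 0.00 over all genes. Of the mitochondrial genes 18 of 20 were lower, with a median of -0.23. Of the peroxisomal genes 5 of 8 were higher, with a median of 0.02. Besides Pex11a at 0.30 these were Scp2, Decr2, Crot and Eci2, at 0.01 to 0.04. Other probe sets of the 34 genes differed in sign for 3 of 19 (Hsd17b4 and Scp2). B cell markers were lower for 6 of 7 (median -0.20, with 4 at an unadjusted p under 0.05) and white adipocyte markers for 7 of 9 (median -0.22). Neutrophil markers were higher for 9 of 9 (median 0.28). Salivary and lacrimal gland genes were lower for 12 of 12 (median -3.57). The gland list mean was 11.06 in WT CFA and 5.02 in WT CFA+PTX, against 11.01 in H3RKO CFA and 11.54 in H3RKO CFA+PTX. The part of these lists in the result was not tested. An adjusted p under 0.05 was reached by 0 genes (0% of all genes, limma). An unadjusted p under 0.05 was found for 8 of 34 (5.99% of all genes), all lower (2.65% of all genes were lower at that p), and for 4 without moderation. These were Crat, Hadha, Hadhb, Eci1, Etfa and Etfdh of the mitochondrial group, with Ehhadh and Ppara.

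Both CFA+PTX arrays lay below both CFA arrays for 17 of 34 genes, 14 of 20 mitochondrial and 2 of 8 peroxisomal, against 20.6% of all genes. Eci1, the mitochondrial isomerase, was at 9.91 and 10.11 in WT and H3RKO CFA and at 9.69 and 9.64 with PTX, while its untreated values of 9.82, 9.76, 9.97 and 9.73 lay mostly between. The difference was -0.35 ± 0.10 (adjusted p = 0.891, limma). Hadhb, the beta subunit of the trifunctional protein, was at 11.73 and 11.88 after CFA and 11.44 and 11.60 after CFA+PTX, with 11.74, 11.44, 11.82 and 11.61 untreated. Here untreated arrays spanned nearly the whole range, and the difference was -0.29 ± 0.12 (adjusted p = 0.891).

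Ehhadh, the bifunctional enzyme of peroxisomes, had the largest such difference among the peroxisomal genes, of which Acaa1a and Hsd17b4 were also lower, by less than 0.1. It was at 7.31 and 7.55 after CFA, 6.87 and 7.05 after CFA+PTX and 7.32, 7.16, 7.33 and 7.02 untreated, a difference of -0.47 ± 0.13 (adjusted p = 0.891). Ppara, at 6.03 and 6.23 after CFA and 5.33 and 5.72 after CFA+PTX, differed by -0.61 ± 0.25 (adjusted p = 0.891), with untreated values of 6.09, 5.17, 5.83 and 5.79. Acot1 at 0.61 ± 0.43 (adjusted p = 0.912) and Pdk4 at -0.55 ± 0.36 (adjusted p = 0.903) were the other large differences, and Acot1 was at -0.31 without the H3RKO CFA+PTX array. Without the H3RKO CFA array the median of the 34 genes was -0.06.

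**Figure D4:**
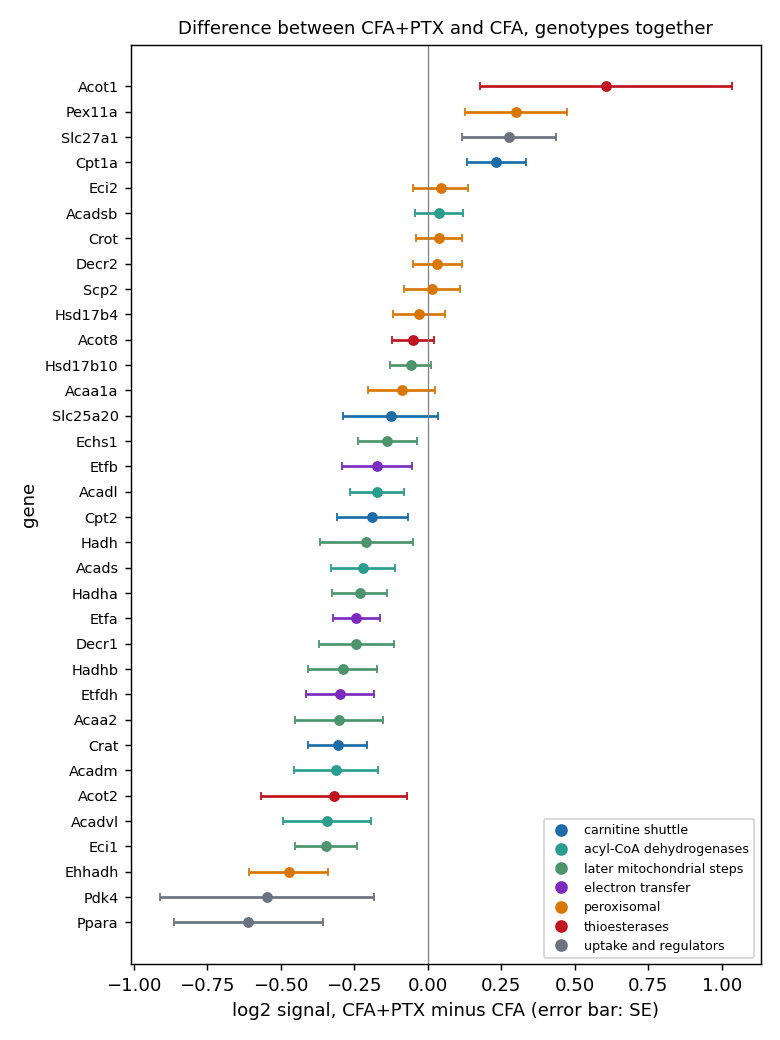
Difference in log2 signal, CFA+PTX minus CFA with genotypes together (horizontal axis), for each of the 34 genes (vertical axis), coloured by role, with error bars of 1 standard error. Mitochondrial genes fill the left side, 18 of 20 below 0, and 5 of 8 peroxisomal genes lie to the right of 0, Pex11a the farthest of them.

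The mean of the brown fat markers varied with the mitochondrial mean from array to array, though not every marker did. Ucp1, the uncoupling protein that defines brown fat, was at 10.98 and 9.14 in untreated WT, 11.06 in WT CFA and 7.58 in WT CFA+PTX. In H3RKO it was at 10.70 and 10.28 untreated, 11.34 after CFA and 10.01 after CFA+PTX. Zic1, a dim marker of the same list, ran the other way, at 3.25 in WT CFA+PTX and 2.95 in H3RKO CFA. Ppargc1a ran only from 5.36 in WT CFA+PTX to 5.96 in H3RKO untreated replicate 2. The mean of the 8 measured brown fat genes that are not themselves fatty acid transport or binding genes ran from 6.09 in WT CFA+PTX to 7.88 in H3RKO CFA, the arrays in which the mitochondrial mean was lowest and highest. Over the 8 arrays, pools that also share genotypes and treatments, the means had Pearson's r = 0.82 and Spearman's rho = 0.86. Without WT CFA+PTX and WT untreated replicate 2, r was 0.79.

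Gene by gene, r with the brown fat mean was above 0.7 for 17 of the 34 genes, 14 of 20 mitochondrial and 1 of 8 peroxisomal, and for 2.94% of all other genes. Hadhb (r = 0.94), Hadha (r = 0.93) and Ppara (r = 0.92) came first, and Ehhadh (r = 0.86) was the peroxisomal one. Acot1 (r = -0.09), Cpt1a (r = -0.27), Acadsb (r = -0.34), Pex11a (r = -0.40) and Slc27a1 (r = -0.47) did not follow it. Of the fixed list, 10 of 12 brown fat genes were measured, and their median difference was 0.44 for H3RKO against WT after CFA, 0.84 after CFA+PTX and -1.41 for CFA+PTX against CFA. The part of brown fat in the mitochondrial values was not tested. The 17 measured respiratory chain genes had a median of -0.13 for CFA+PTX against CFA, with 17 of 17 lower. Their mean was also lowest in WT CFA+PTX, at 11.71, and highest in H3RKO CFA, at 11.93. No list but brown fat was correlated with the mitochondrial mean, so the correlation is not read as particular to brown fat.

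**Figure D5:**
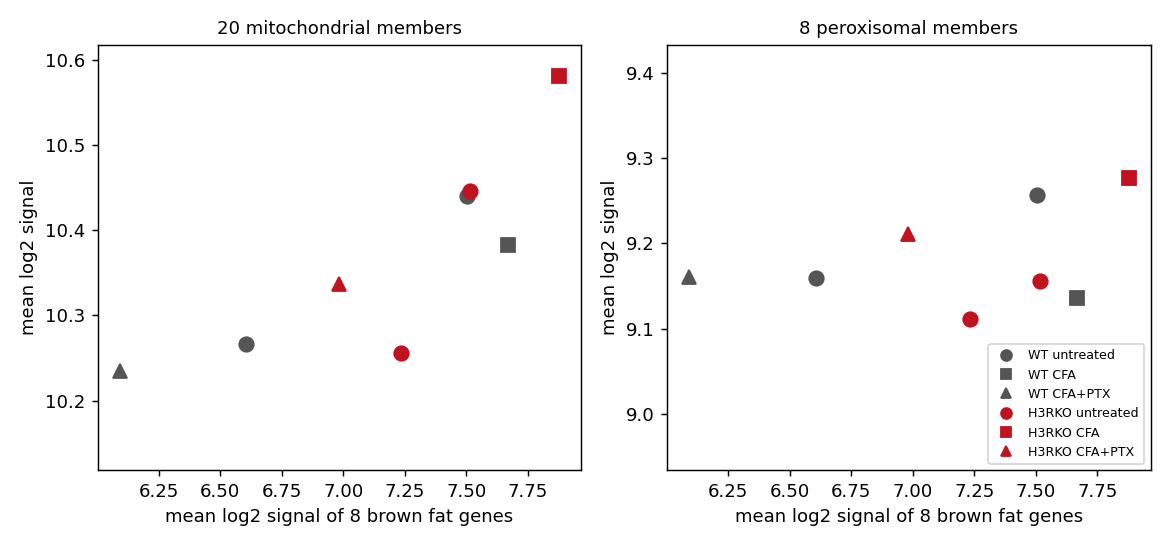
Mean log2 signal of 20 mitochondrial (left) and 8 peroxisomal genes (right, vertical axes of equal length) against the mean of 8 brown fat genes (horizontal axis), 1 point per array, WT in grey and H3RKO in red, with circles for untreated, squares for CFA and triangles for CFA+PTX. The mitochondrial mean went from 10.24 to 10.58 along the brown fat axis (r = 0.82), and the peroxisomal mean stayed between 9.11 and 9.28.

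Of 59 further genes of fatty acid handling listed beside the set, 49 were measured. At the study's criterion 0 passed in untreated LN, 0 after CFA and 1 after CFA+PTX, which was Fabp3, a cytosolic fatty acid binding protein of muscle and brown fat. It was higher in H3RKO by 2.19 ± 0.67 (adjusted p = 1.00, limma), at 6.47 in the 1 WT array and 8.66 in the 1 H3RKO array. Fabp3 is also on the brown fat list, of which Ucp1 passed in the same comparison at 2.42 ± 0.81. Both calls rest on moderated variances, and without moderation neither gene had an unadjusted p under 0.05. The counts among the 49 genes compare with 0.161%, 0.145% and 0.347% of all genes. At an unadjusted p under 0.05 there were 2, 2 and 2 of the 49 in these comparisons, against 4.9%, 2.35% and 3.36% of all genes. Between CFA+PTX and CFA 35 of the 49 were lower, with a median of -0.10, and 7 had an unadjusted p under 0.05, all lower, against 2.65% of all genes.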

How the data were processed

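RNA of 8 LN pools was hybridized to single-colour Affymetrix mouse arrays, and the deposited log2 values are those the authors obtained by Robust Multichip Average in Partek Genomic Suite. No earlier step was repeated. Of 22690 probe sets, 64 controls were set aside, and 20380 matched 1 gene in the platform annotation. Genotype differences within treatments and interactions came from limma 3.58.1 (R 4.3.3) with a mean per group (2 residual degrees of freedom, from the untreated pairs), called at the study's criterion. The remaining comparisons used a model with additive terms for genotype and treatment (4 residual degrees of freedom), called at a Benjamini-Hochberg adjusted p under 0.05 over all probe sets. Where no source names separate mice per array beyond the pools, p-values measure only the spread between these arrays. The number of arrays limits the precision. The genes, lists and named-gene rule (genes that passed, Acot1 and Acot2, and otherwise up to 3 largest differences per comparison) were chosen with earlier results of these data known. Any further gene was named with its values already in view. Both models were tested on simulated data. Alternatives were a fit without moderation, a trend with robust fitting, other scaling, filters on probe sets, other thresholds, a replicate block and each array left out. Muscle, hepatocyte and mammary epithelium lists had mean log2 signals of 5.35 to 6.40, 6.80 to 7.11 and 6.22 to 7.34. Promoters came from RefSeq (GRCm38.p6). Plots used matplotlib 3.10.9.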

Additional observations from a re-analysis of the deposited data

Results flagged for a closer look

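Of the 34 genes, Acot1 was the only one whose own probe set gave a genotype difference that itself differed between treatments at the study's criterion. The difference after CFA+PTX minus that in untreated LN was 1.87 ± 0.20 on the log2 scale (adjusted p = 0.431, limma), with 1 array for each genotype after CFA+PTX. It was higher in H3RKO in 1 of 1 pair of CFA+PTX arrays, and the adjusted p was above 0.05. The probe set that Acot1 shares with Acot2 also passed, at 1.07 ± 0.18 (adjusted p = 1.00, limma).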

How the results depend on the processing

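No result that passed a threshold changed direction under the settings tried. With an adjusted p under 0.05 and no fold change, 0 genes passed after CFA+PTX and 0 in its interaction, so the Acot1 calls rest on unadjusted p-values. With a fold change over 1.5, 1 gene passed after CFA (Acot2) and 2 in the CFA interaction (Acot2 and Pex11a). Leaving out single arrays gave 0 to 1 genes in the CFA interaction (Acot2 passed without WT untreated replicate 1, and Pdk4, at 1.25, without WT untreated replicate 2) and 1 to 2 in the CFA+PTX interaction (2 without WT untreated replicate 2, Pdk4 at 1.42). It gave 0 to 1 for CFA+PTX against untreated (1 without WT CFA+PTX, Acot1 at 1.87). The median of the CFA interaction ran from 0.10 to 0.30, and that of CFA+PTX against CFA from -0.27 to -0.056, the last without H3RKO CFA. With both arrays of low gland signal left out, chosen after seeing the data, 1 gene (Acot2) passed in the CFA interaction. The cause was not tested. Of the other settings, 161 counts stayed within 1.5 times and 128 medians within the spread of replicates. Of values for single genes 803 stayed, 27 moved, 8 came past a threshold and 2 fell short of it. That spread was 0.12, wider than several of the medians themselves, and a change of sign within it counted as stayed. Counts of 0 in both settings also counted as stayed, so these tallies are no measure of stability. Leaving out a treated array removes the genotype difference of that treatment, and leaving out dim probe sets removes Acot2 and Ppara.

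With a replicate block, 1 gene passed after CFA+PTX and 1 in its interaction, as without it, and no other count changed. Samples share only a number: with 2 pairs, the correlation of their deviations was 0.12 over all probe sets and 0.50 over the 34 genes. Treated groups of 1 array, which borrow their spread from untreated LN, limit all genotype differences after injection.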
